A study of Mus musculus with 6 samples.

Results

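The expression of 38 mouse genes that supply amino acids and charge transfer RNA was followed in bone marrow-derived macrophages, primary cells that RANKL, the cytokine that starts osteoclast formation, can turn into bone-resorbing osteoclasts. The genes were chosen by name, as the rows of the deposited gene table whose symbol matched a list, and all 38 of the 38 names were found among 45706 listed genes. They fall into the ATF4 axis (5 genes), serine synthesis (3), one-carbon enzymes (5), amino acid carriers (8) and cytosolic tRNA synthetases (17). Every one of the 38 passed the filter on low counts, which left 12224 genes tested. RNA-seq was made from 6 libraries in 3 groups of 2: untreated macrophages at day 0, cells given RANKL until day 1, and cells given RANKL plus sodium acetate, a short-chain fatty acid salt, until day 1. All are labelled as primary cells and no genetic change is named, and strain, age, doses and medium were not given in the sources used here. No day 1 group lacked RANKL and no group received another sodium salt, so an effect of RANKL cannot be told apart from the day in culture, nor one of acetate from one of added sodium. The labels do not say that both libraries of a group came from separate cultures or animals, so p-values reflect no more than the spread among these samples, and that spread may be technical.

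Expected counts summed to between 9997527 and 11254961 per library, and TMM factors, which scale libraries to each other, ranged from 0.952 to 1.037. The labelled cell type was checked on 7 macrophage markers, whose summed level was 20181 to 20459 TPM (a relative abundance that corrects for gene length) at day 0, 6607 to 6641 TPM with RANKL and 14375 to 14647 TPM with acetate. Lyz2 made up most of that sum, at 17174, 5341 and 12947 TPM on average, while Csf1r stood at 761, 244 and 314 TPM and Mertk at 27.7, 1.27 and 3.37 TPM, and all 7 were lower with RANKL than at day 0 and higher with acetate than with RANKL alone, without overlap. The 6 osteoclast markers summed to 20.7 to 24.7, 1846 to 1874 and 439 to 464 TPM in the same order. Markers of B, T or NK, erythroid, stromal, mast and dendritic cells summed to at most 2.29 TPM in any library, and 4 of 5 T or NK, 2 of 4 erythroid and 1 of 3 mast cell markers were at 0 in every library. The 4 endothelial markers summed to 7.16 to 7.36 TPM at day 0, 2.87 to 4.15 TPM with RANKL and 4.97 to 6.48 TPM with acetate. The 5 neutrophil markers summed to 584 to 625 TPM at day 0 and to 468 to 472 TPM in the 4 other libraries, and the 3 megakaryocyte markers, nearly all of it Pf4, to 1328 to 1409, 238 to 265 and 282 to 296 TPM. At day 0 S100a8 and S100a9 averaged 244 and 326 TPM, Elane and Mpo 20.9 and 13.6 TPM and Ly6g 0.21 TPM. With RANKL Itga2b went from 2.86 to 3.645 TPM on average and Gp1ba from 0.725 to 0.685 TPM. These sums do not show that neutrophils or megakaryocytes were present. What part the shifts in marker levels have in the results was not tested. In RNA from a whole culture fewer cells of a type and less RNA per cell cannot be told apart.

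Cells obtain amino acids through membrane carriers or make them, as they make serine from a glycolytic intermediate. Serine in turn feeds the one-carbon units of folate metabolism, which are used to build purines and thymidylate, and aminoacyl-tRNA synthetases attach each amino acid to its tRNA before the ribosome uses it. ATF4, a transcription factor made when the initiation factor eIF2 is phosphorylated, is known to raise genes of all these steps when amino acids run short.

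The RANKL libraries were set against day 0 to ask what 1 day of the cytokine did to these genes. Most of the set rose. Of the 38 genes 28 rose and 5 fell by edgeR's quasi-likelihood test at a Benjamini-Hochberg adjusted p under 0.05, and 5 did not pass. Over all 12224 genes tested 66.3% were called, 32.8% higher and 33.5% lower, so being called was common among all genes. Their median log2 fold change was 0.57, against 0.010 over all genes tested. Both libraries of a group lay to 1 side of the other group for 34 of the 38, against 81.4% of all genes. Changes of at least 2-fold were called for 7 of the 38, against 21.8% of all genes: Shmt1, Shmt2, Slc7a5 and Slc1a5 upward, and Ddit3, Trib3 and Slc3a2 downward. The genes that fell were Ddit3, Trib3, Slc3a2, Slc1a4 and Sars, and those that did not pass were Chac1, Phgdh, Psph, Slc7a2 and Wars.

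**Figure D1:**
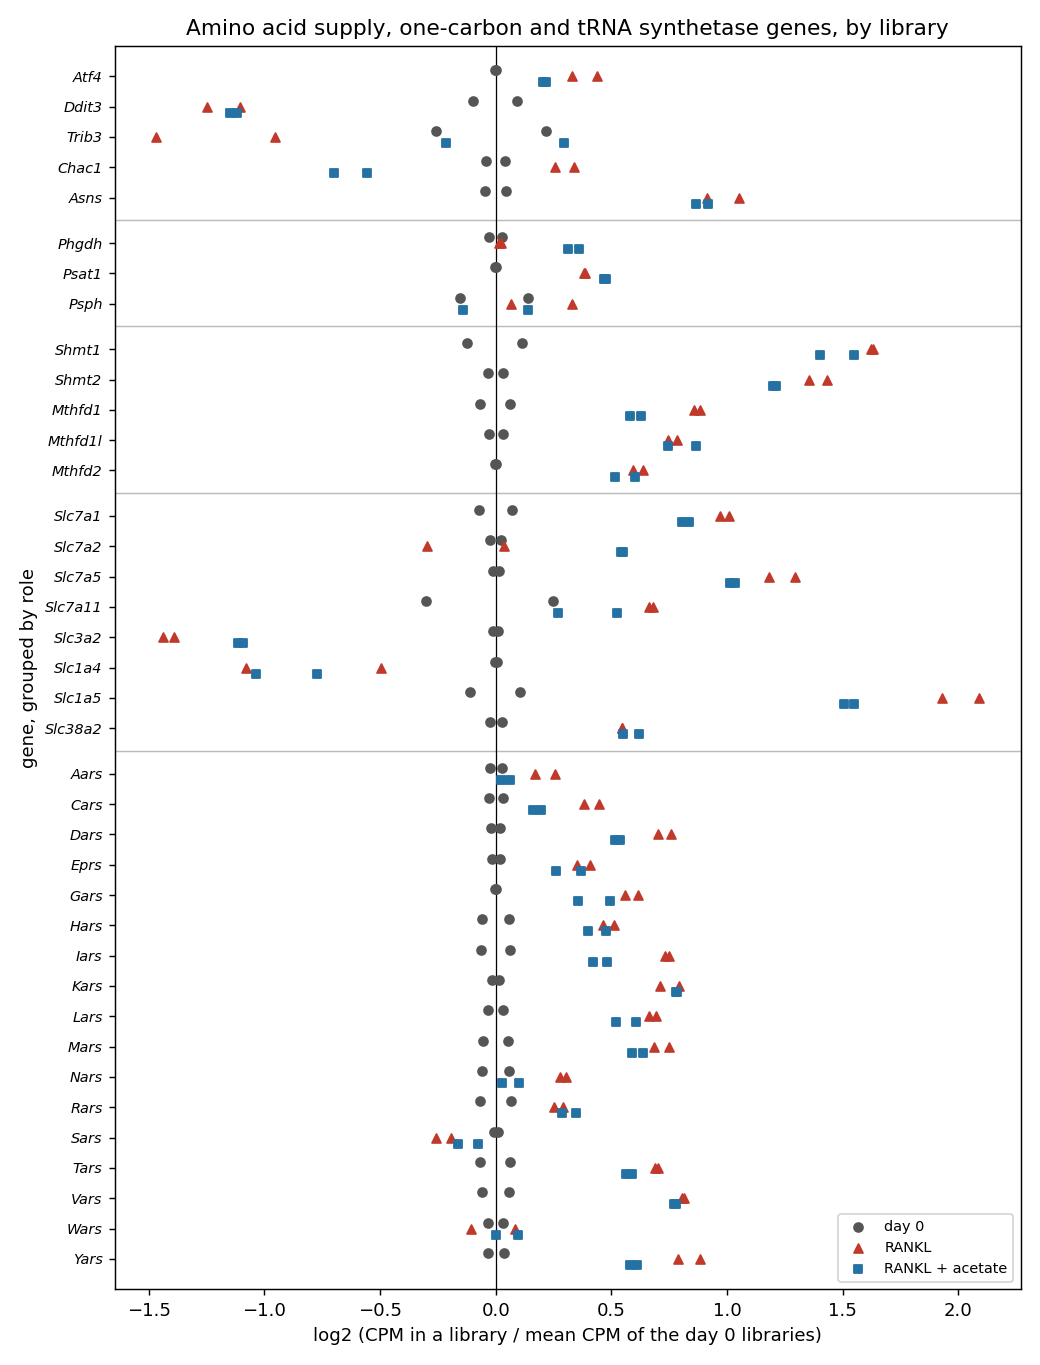
Each of the 38 genes in each library, plotted as the log2 ratio of its CPM (counts relative to the scaled library total) to the mean CPM of the day 0 libraries, with genes grouped by role. Slc1a5 lies farthest to the right with RANKL and Slc3a2 is among the farthest to the left, and the acetate libraries of both lie nearer to day 0.

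What acetate changed in the presence of RANKL was asked by comparing both day 1 groups. The changes were fewer and small, and mostly downward. Of the 38 genes 3 rose (Trib3, Slc7a2 and Slc3a2), 13 fell and 22 did not pass by edgeR, where 30.4% of all genes were called, 16.7% higher and 13.7% lower. The median log2 fold change was -0.11, against -0.0037 over all genes. Libraries of both groups did not overlap for 27 of the 38, against 62.9% of all genes. Trib3 alone was called with a change of at least 2-fold, against 5.19% of all genes. Of the other tests, limma-voom also called 3 higher and 13 lower. Fewer calls came from DESeq2, with 1 higher and 11 lower, and from limma-trend on log2(TPM + 0.1), with 1 higher and 6 lower. The calls of Shmt2, Slc3a2, Slc1a5 and Iars held in all 19 alternatives tried, and those of the other 12 were lost in at least 1.

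**Figure D2:**
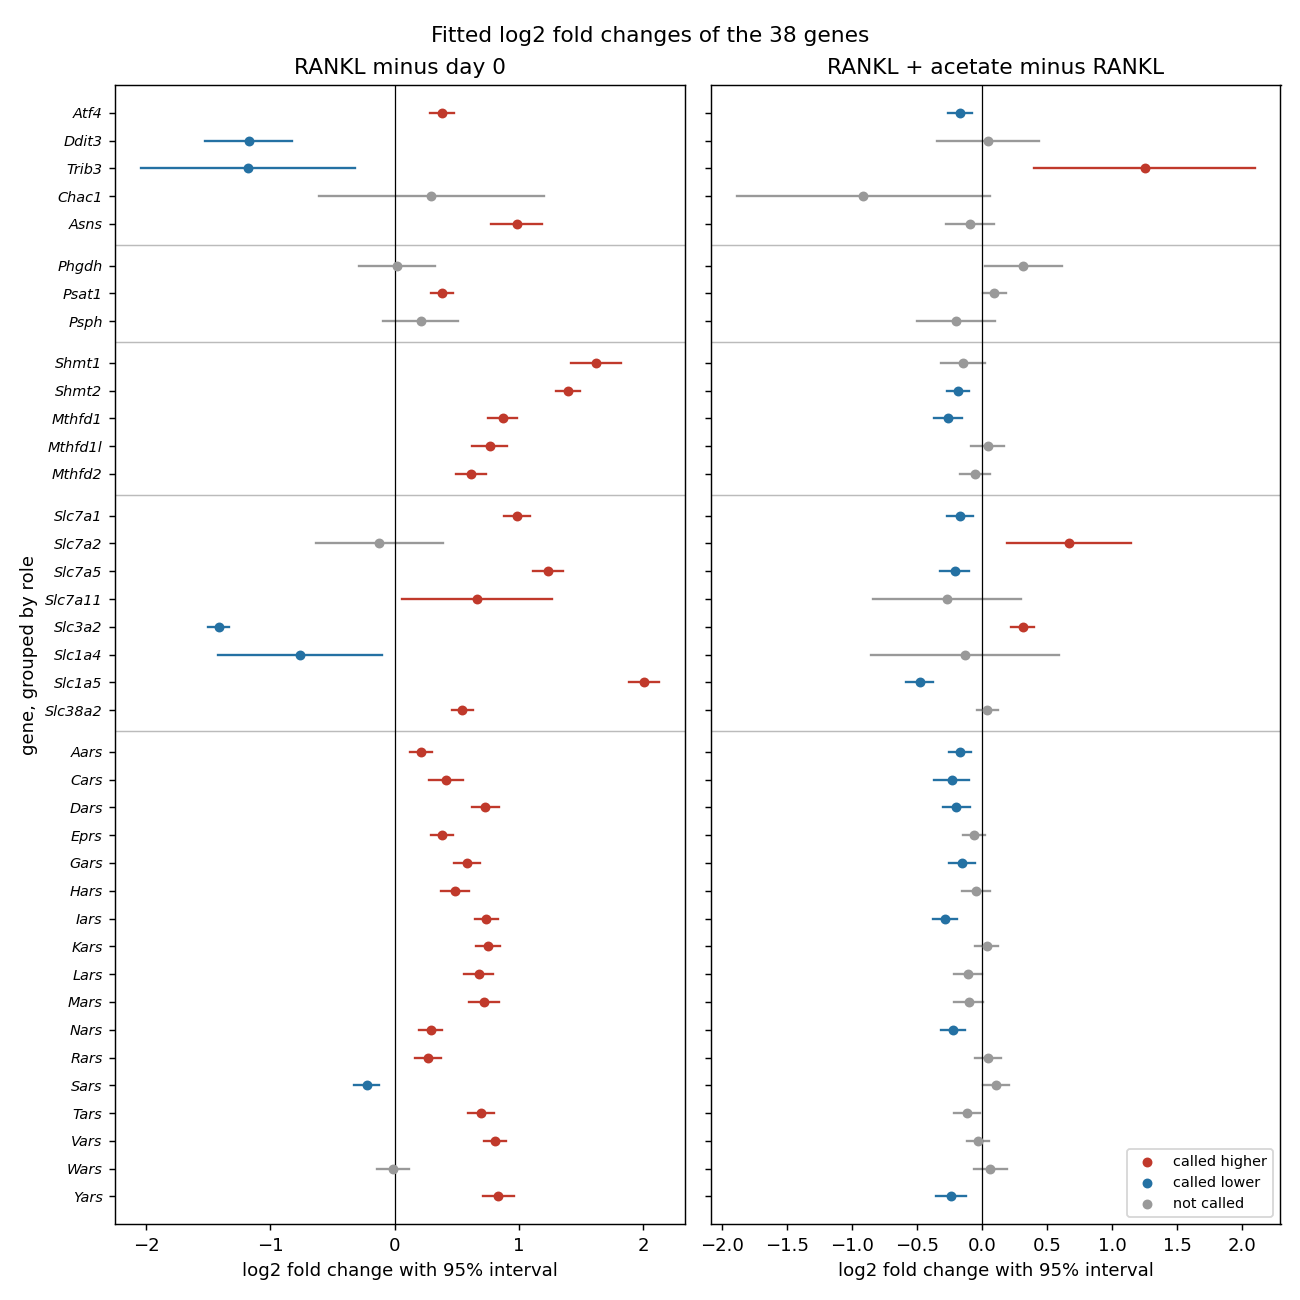
Log2 fold changes of the 38 genes, by role, for RANKL against day 0 and for RANKL with acetate against RANKL, from edgeR, with bars of 95% intervals and colours for called higher, called lower and not called; the axes of both panels differ in range. Changes with RANKL reach from -1.41 to 2.01, and those with acetate mostly lie between -0.48 and 0.32, with wide bars for the scarce transcripts Trib3, Chac1 and Slc7a2.

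The ATF4 axis did not move as 1 unit. Atf4 itself, whose protein is controlled mainly through translation of its mRNA, stood at 182 and 182 CPM at day 0, 228 and 246 CPM with RANKL and 212 and 209 CPM with RANKL and acetate. It was higher with RANKL in both libraries and lay between with acetate, and the groups did not overlap. The log2 fold change was 0.38 ± 0.046 (SE) with RANKL (edgeR adjusted p = 6.79e-09) and -0.17 ± 0.046 for acetate against RANKL (adjusted p = 0.00355), the latter not called without RANKL replicate 2 (adjusted p = 0.0976). Asns, the asparagine synthetase that is a standard target of ATF4, had 20.7 and 22.0 CPM at day 0, 44.2 and 40.2 CPM with RANKL and 40.3 and 38.9 CPM with RANKL and acetate. It rose 1.98-fold, a log2 fold change of 0.99 ± 0.10 (edgeR adjusted p = 1.59e-10), and its acetate libraries lay beside those of RANKL alone, at -0.093 ± 0.091 (adjusted p = 0.484).

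Ddit3 and Trib3 went the other way with RANKL. Ddit3, which encodes CHOP, a transcription factor tied to cell death under prolonged stress, had 14.2 and 16.1 CPM at day 0, 7.03 and 6.37 CPM with RANKL and 6.98 and 6.84 CPM with RANKL and acetate. Day 0 was high and all 4 day 1 libraries were low, with a log2 fold change of -1.17 ± 0.17 for RANKL (edgeR adjusted p = 3.21e-07) and 0.043 ± 0.19 for acetate (adjusted p = 0.900). Ddit3 shares 68 exonic bases, 3.97% of its own, with Mars on the opposite strand, and the use of strand in counting is not stated. The expected counts of both genes were whole in every library, and so show no read divided between them. How reads there were assigned was not tested. Trib3, a pseudokinase that restrains ATF4 and CHOP, was scarce at 2.18 and 3.04 CPM at day 0, 0.943 and 1.35 CPM with RANKL and 3.20 and 2.25 CPM with RANKL and acetate. The RANKL libraries were the lowest and the acetate libraries reached the day 0 range. Trib3 fell by 1.18 ± 0.42 on the log2 scale with RANKL (edgeR adjusted p = 0.0145) and rose by 1.25 ± 0.42 with acetate (adjusted p = 0.0209). The first was lost without day 0 replicate 2 or RANKL replicate 1 (adjusted p = 0.148 and 0.129), and the second without RANKL replicate 1, RANKL replicate 2 or acetate replicate 1 (adjusted p = 0.182, 0.0600 and 0.215). Chac1, which degrades glutathione, had only 14 and 14, 21 and 19, and 10 and 9 counts in the 3 groups. Its log2 fold changes of 0.30 ± 0.45 and -0.91 ± 0.48 did not pass (edgeR adjusted p = 0.573 and 0.157).

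The promoters of the set were searched for the C/EBP-ATF response element, the composite site at which ATF4 and a C/EBP partner are known to bind. The core letters TGATGNAA, where N is any base, were looked for on both strands (TTNCATCA on the other) in RefSeq promoter windows of 300 bases, 250 before and 50 after each annotated start, on GRCm38.p6. A window was found for 28 of the 38 genes, Mars through its RefSeq synonym. None was used for Slc7a2, Slc7a5, Slc1a5, Cars, Hars, Lars, Nars, Rars, Vars and Wars. The letters occurred in 10 of the 28 (35.7%), against 247 of 8894 tested genes with a window (2.78%) and 1304 of all 32851 windows (3.97%). The set names the ATF4 axis among its roles, and this share is a description of these windows, with no test. The sites shown are those of Asns, the gene of the axis that rose the most, of Trib3, which fell, of the carrier Slc7a11 and of 3 synthetases. Capitals mark the matched letters.
Asns: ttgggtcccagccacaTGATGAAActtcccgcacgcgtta
Trib3: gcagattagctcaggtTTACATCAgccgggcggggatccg
Slc7a11: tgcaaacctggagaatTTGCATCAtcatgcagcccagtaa
Aars: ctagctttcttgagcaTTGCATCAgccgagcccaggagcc
Iars: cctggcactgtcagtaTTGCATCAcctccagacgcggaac
Yars: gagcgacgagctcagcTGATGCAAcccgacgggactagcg
The sites lie, on GRCm38.p6, in Asns at chr6:7693209-7693248 on the minus strand, Trib3 at chr2:152344023-152344062 on the minus strand, Slc7a11 at chr3:50443637-50443676 on the minus strand, Aars at chr8:111033714-111033753 on the plus strand, Iars at chr13:49682121-49682160 on the plus strand and Yars at chr4:129189890-129189929 on the plus strand. Counted from the RefSeq start base as position 0, the letters shown begin at -23 in Asns, 14 in Trib3, -47 in Slc7a11, -112 in Aars, 7 in Iars and 3 in Yars, and another match lies at -66 in Slc7a11 and at 9 in Aars. Sequences are given 5′ to 3′ on the strand of the gene and come from RefSeq.

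By role, the letters were present in 3 of 5 genes of the ATF4 axis (Asns, Trib3 and Chac1), in 2 of 5 carriers with a window (Slc7a11 and Slc1a4) and in 5 of 10 synthetases with a window (Aars, Gars, Iars, Tars and Yars). They were in 0 of 3 windows for serine synthesis and 0 of 5 for one-carbon enzymes. Among related lists they were in 7 of 17 other ATF4 targets, 1 of 22 other amino acid carriers (Slc7a7) and 0 of 14 mitochondrial synthetases. The changes of genes with and without the letters were set side by side, with no test. Of the 10 with them 7 rose and 2 fell with RANKL, with a median log2 fold change of 0.62, and of the 18 without them 13 rose and 3 fell, with a median of 0.58. With acetate 1 of the 10 rose and 4 fell (median -0.16), and 1 of the 18 rose and 5 fell (median -0.060). Of all genes tested 32.8% were called higher and 33.5% lower with RANKL, and 16.7% and 13.7% with acetate. A match is a description of the letters and does not show that a factor binds there.

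**Figure D3:**
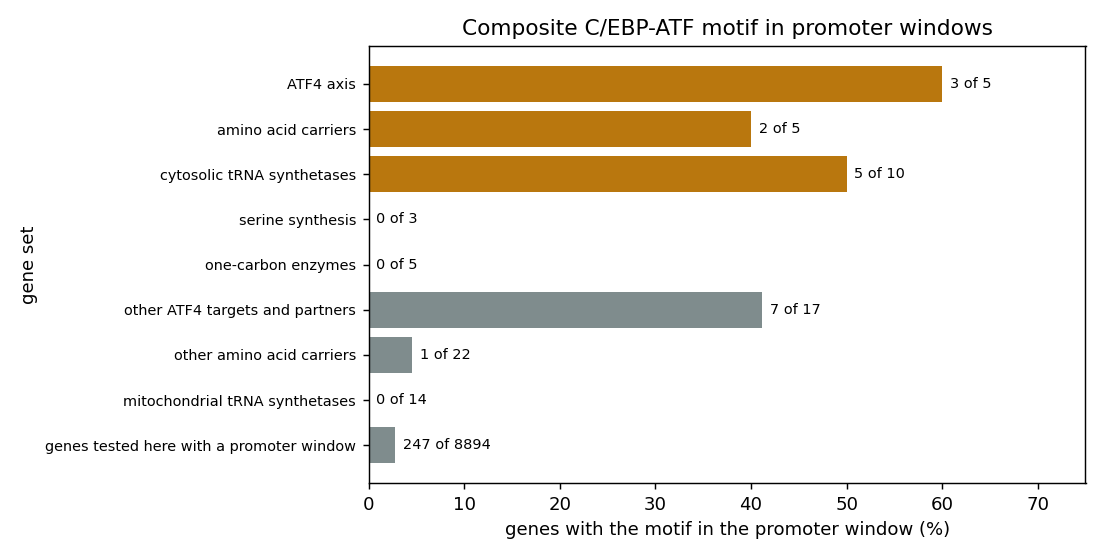
Percentage of genes with a promoter window that carry the response element letters on either strand, for each role (upper bars), for related gene lists and for all tested genes (grey bars), with the counts beside each bar. The ATF4 axis reaches 60.0%, synthetases 50.0% and carriers 40.0%, while tested genes as a whole stand at 2.78%.

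Serine synthesis changed little. Psat1, the transaminase of the second step, was the only 1 of the 3 enzymes to pass with RANKL. It had 168 and 169 CPM at day 0, 219 and 219.6 CPM with RANKL and 234 and 233 CPM with RANKL and acetate. The log2 fold change was 0.38 ± 0.045 with RANKL (edgeR adjusted p = 3.72e-09) and 0.090 ± 0.043 for acetate (adjusted p = 0.119). Phgdh, the dehydrogenase that commits a glycolytic intermediate to serine, had 12.2 and 12.7 CPM at day 0, 12.6 and 12.6 CPM with RANKL and 15.4 and 15.9 CPM with RANKL and acetate. Day 0 and RANKL overlapped, with a log2 difference of 0.019 ± 0.15 and a 95% interval of -0.29 to 0.32 (edgeR adjusted p = 0.922). Both acetate libraries were above the 4 others, at 0.32 ± 0.14 over RANKL, and this did not pass (adjusted p = 0.0965). Psph, the phosphatase of the last step, had 13.2 and 16.1 CPM at day 0, 18.4 and 15.3 CPM with RANKL and 13.3 and 16.1 CPM with RANKL and acetate. All groups overlapped in its values (edgeR adjusted p = 0.220 and 0.332). Psph shares 452 exonic bases with Cct6a on the opposite strand, 10.4% of its own. Cct6a had 25080 counts in all against 975 for Psph. The expected counts of Psph were whole in every library, and so show no read divided with Cct6a. How reads there were assigned was not tested. Per gene length, Psat1 and Phgdh differed widely: at day 0 Psat1 had 101 ± 0.509 TPM (SD, n = 2) and Phgdh 10.4 ± 0.354 TPM.

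All 5 one-carbon enzymes rose with RANKL, with a median log2 fold change of 0.87, where 32.8% of all genes were called higher. The serine hydroxymethyltransferases, which pass a carbon of serine to folate and leave glycine, rose the most. Shmt1, the cytosolic enzyme, had 19.9 and 16.9 CPM at day 0, 56.6 and 56.9 CPM with RANKL and 48.6 and 53.8 CPM with RANKL and acetate. It rose 3.08-fold, at 1.62 ± 0.099 on the log2 scale (edgeR adjusted p = 2.61e-16). Shmt2, the mitochondrial enzyme, had 117 and 112 CPM at day 0, 292 and 308 CPM with RANKL and 265 and 263 CPM with RANKL and acetate. All 4 day 1 libraries were more than 2-fold above day 0, and those with acetate were lower than both with RANKL alone. Shmt1 was not called for acetate (-0.15 ± 0.083, edgeR adjusted p = 0.187) and Shmt2 was (-0.19 ± 0.043, adjusted p = 8.81e-04), and the difference between both changes was not tested. Shmt1 also shares 184 exonic bases with Smcr8 on the opposite strand.

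The folate-interconverting enzymes rose less. Mthfd1, the trifunctional cytosolic enzyme, had 88.9 and 81.3 CPM at day 0, 157 and 154 CPM with RANKL and 132 and 127 CPM with RANKL and acetate. It rose by 0.87 ± 0.056 on the log2 scale with RANKL (edgeR adjusted p = 1.58e-15) and fell by 0.27 ± 0.053 with acetate (adjusted p = 1.62e-04). Neither mitochondrial enzyme passed for acetate. Mthfd1l, the mitochondrial formate-releasing enzyme, had 56.7 and 54.4 CPM at day 0, 93.2 and 95.8 CPM with RANKL and 93.2 and 101 CPM with RANKL and acetate, and Mthfd2, the mitochondrial dehydrogenase, 74.2 and 74.4 CPM at day 0, 112 and 115 CPM with RANKL and 106 and 113 CPM with RANKL and acetate. Their log2 fold changes with RANKL were 0.76 ± 0.068 and 0.61 ± 0.060 (edgeR adjusted p = 4.65e-12 and 6.30e-11), and those for acetate 0.041 ± 0.062 and -0.055 ± 0.057 (adjusted p = 0.672 and 0.517).

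The rest of the folate network, 17 tested genes of a list of 18, was divided: 11 rose with RANKL, 6 fell and 0 failed to pass. The median log2 fold change was 0.46, and 32.8% of all genes were called higher and 33.5% lower. Slc19a1, the reduced folate carrier, had 17.9 and 18.3 CPM at day 0, 61.1 and 66.2 CPM with RANKL and 67.2 and 69.1 CPM with RANKL and acetate, a log2 fold change of 1.81 ± 0.092 with RANKL. Gcsh, the lipoyl carrier of glycine cleavage, rose by 1.14 ± 0.055, and Sfxn1, the mitochondrial serine carrier, by 0.98 ± 0.062. The genes that fell with RANKL included Aldh1l1 and Ggh, with log2 fold changes of -2.68 and -0.69 (edgeR adjusted p = 2.54e-14 and 5.22e-08). Mtr, methionine synthase, which uses a folate-bound methyl group to make methionine, had 74.2 and 68.2 CPM at day 0, 132 and 144 CPM with RANKL and 94.2 and 94.8 CPM with RANKL and acetate. Its levels were highest with RANKL alone and the 3 groups did not overlap. Mtr changed by 0.95 ± 0.062 with RANKL and -0.55 ± 0.060 with acetate (edgeR adjusted p = 1.88e-15 and 3.98e-09). With acetate 3 genes of this list rose, Aldh1l1 and Ggh among them, and 4 fell, Mtr, Fpgs and Dld among them. Aldh1l1 and Ggh rose by 0.89 and 0.62 on the log2 scale, and Aldh1l1 with acetate stayed at -1.79 against day 0. The shares of all genes called for acetate were 16.7% higher and 13.7% lower. Leaving out 1 library ended the acetate calls of Aldh1l1 (RANKL replicate 2, adjusted p = 0.0570), Fpgs (from 0.0617 to 0.153 without RANKL replicate 2, acetate replicate 1 or acetate replicate 2) and Dld (from 0.0990 to 0.394 without RANKL replicate 1, acetate replicate 1 or acetate replicate 2).

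Of 14 tested genes of glutathione and purine synthesis, both pathways that use glycine, 11 rose with RANKL and 3 fell. Their median log2 fold change was 0.58, and 32.8% of all genes were called higher and 33.5% lower. The largest rises were in purine synthesis. Impdh2, which makes the precursor of guanine nucleotides, had 104 and 114 CPM at day 0, 368 and 375 CPM with RANKL and 296 and 307 CPM with RANKL and acetate, a log2 fold change of 1.77 ± 0.047 with RANKL and -0.30 ± 0.042 with acetate (edgeR adjusted p = 1.56e-26 and 6.34e-07). Adss, which commits purines to adenine nucleotides, rose by 1.51 ± 0.052, and Gart, a folate-using enzyme of the purine ring, rose from 126 and 125 to 297 and 304 CPM (edgeR adjusted p = 7.24e-23). Both subunits of the enzyme that limits glutathione synthesis fell, Gclm by 1.32 and Gclc by 0.74 on the log2 scale (edgeR adjusted p = 2.14e-21 and 7.52e-11), and so did Adssl1, by 0.45. With acetate 3 of the 14 rose (Adssl1, Gclm and Paics) and 2 fell (Impdh2 and Atic), where 16.7% of all genes were called higher and 13.7% lower. Leaving out single libraries ended the calls of Gclm (edgeR adjusted p from 0.0621 to 0.416 without either day 0 library, RANKL replicate 2 or either acetate library), Paics (from 0.0508 to 0.211 without any 1 of the 4 day 1 libraries) and Atic (0.0594 and 0.0759 without RANKL replicate 1 or acetate replicate 1), and of the 3 rises that of Adssl1 alone stayed past the threshold in each of these fits.

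The carriers showed the widest range of the set. Of 8, 5 rose with RANKL, 2 fell and 1 did not pass, against 32.8% of all genes called higher and 33.5% lower. Changes of at least 2-fold were called for 3 of the 8, against 21.8% of all genes. Slc1a5, the glutamine and neutral amino acid exchanger known as ASCT2 (chr7:16781340-16798274 on GRCm38), had 83.3 and 71.8 CPM at day 0, 295 and 330.3 CPM with RANKL and 227 and 220.3 CPM with RANKL and acetate. Both RANKL libraries were the highest, acetate lay below them and day 0 was the lowest, with no overlap. It rose 4.03-fold with RANKL, a log2 fold change of 2.01 ± 0.059 (edgeR adjusted p = 2.45e-25), the largest increase among the 38, and fell by 0.48 ± 0.052 with acetate (adjusted p = 2.67e-09). Slc1a4, the related carrier ASCT1 that takes alanine and serine, went the other way at a low level, with 4.16 and 4.19 CPM at day 0, 1.97 and 2.96 CPM with RANKL and 2.04 and 2.44 CPM with RANKL and acetate. Its log2 fold change of -0.76 ± 0.32 passed (edgeR adjusted p = 0.0383), but not without day 0 replicate 1, day 0 replicate 2 or RANKL replicate 1 (adjusted p = 0.112, 0.116 and 0.274). Acetate gave -0.13 ± 0.35 (adjusted p = 0.820).

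Slc7a1, the main carrier of cationic amino acids such as arginine and lysine, had 116 and 105 CPM at day 0, 222 and 216 CPM with RANKL and 192 and 196 CPM with RANKL and acetate. It rose by 0.99 ± 0.051 with RANKL (edgeR adjusted p = 3.14e-18) and fell by 0.17 ± 0.048 with acetate (adjusted p = 0.00566), the latter lost without RANKL replicate 1 or acetate replicate 1 (adjusted p = 0.0643 and 0.0722). Slc7a2, the inducible arginine carrier of macrophages, was scarce at 4.55 and 4.71 CPM at day 0, 3.77 and 4.75 CPM with RANKL and 6.79 and 6.74 CPM with RANKL and acetate. Day 0 and RANKL overlapped (-0.12 ± 0.25, edgeR adjusted p = 0.686) and both acetate libraries were higher, at 0.67 ± 0.23 (adjusted p = 0.0286). The acetate call was lost without RANKL replicate 1, acetate replicate 1 or acetate replicate 2 (adjusted p = 0.209, 0.0996 and 0.0893). Slc38a2, the sodium-coupled neutral carrier SNAT2 that adapts to amino acid shortage, had 215 and 207 CPM at day 0, 308 and 308 CPM with RANKL and 309 and 324 CPM with RANKL and acetate. It rose by 0.55 ± 0.043 with RANKL (edgeR adjusted p = 2.01e-13) and its acetate change of 0.039 ± 0.041 did not pass (adjusted p = 0.520).

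Slc3a2 fell with RANKL while its partner Slc7a5 rose. Slc3a2 encodes 4F2hc, also called CD98, the heavy chain that carries light-chain transporters of the Slc7 family to the cell surface. It had 484 and 476 CPM at day 0, 177 and 183 CPM with RANKL and 221 and 225 CPM with RANKL and acetate. Day 0 was far above every day 1 library and acetate lay above RANKL alone. With a log2 fold change of -1.41 ± 0.041 (edgeR adjusted p = 2.07e-25) it had the lowest log2 fold change of the 38, and with acetate it rose by 0.31 ± 0.043 (adjusted p = 4.72e-07). Slc7a5, the LAT1 light chain that exchanges large neutral amino acids such as leucine, moved in the opposite direction, with 64.4 and 63.2 CPM at day 0, 145 and 156 CPM with RANKL and 129 and 131 CPM with RANKL and acetate. It rose 2.36-fold, 1.24 ± 0.060 on the log2 scale (edgeR adjusted p = 3.91e-19), and its acetate change of -0.21 ± 0.054 (adjusted p = 0.00216) was lost without RANKL replicate 2 (adjusted p = 0.0669). Slc7a11, the xCT light chain that exchanges cystine for glutamate, was scarce at 3.37 and 2.30 CPM at day 0, 4.54 and 4.48 CPM with RANKL and 4.07 and 3.42 CPM with RANKL and acetate. Its rise of 0.66 ± 0.30 (edgeR adjusted p = 0.0478) was lost without day 0 replicate 2, RANKL replicate 1 or RANKL replicate 2 (adjusted p = 0.300, 0.132 and 0.117), and acetate gave -0.27 ± 0.28 (adjusted p = 0.517).

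Of the light chains outside the 38 genes, Slc7a7 and Slc7a8 fell with RANKL and Slc7a6 rose. Slc7a8, the LAT2 light chain, had 664 and 665 CPM at day 0, 113 and 102 CPM with RANKL and 213 and 213 CPM with RANKL and acetate, a log2 fold change of -2.62 ± 0.046 with RANKL and 0.98 ± 0.048 with acetate (edgeR adjusted p = 6.82e-32 and 6.46e-18). Slc7a7, the y+LAT1 light chain that exports cationic amino acids, changed by -2.56 ± 0.12 and 0.86 ± 0.14 (edgeR adjusted p = 1.05e-19 and 8.03e-06), and Slc7a6, its relative y+LAT2, rose by 0.47 ± 0.094 with RANKL (adjusted p = 4.22e-05). Summed on the TPM scale, the 5 light chains Slc7a5, Slc7a6, Slc7a7, Slc7a8 and Slc7a11 stood at 320.8 and 328 TPM at day 0, 129.8 and 133 TPM with RANKL and 165 and 166 TPM with acetate. Slc3a2 stood at 286 and 284, 106 and 107, and 129.8 and 132 TPM in the same order. Light chain per heavy chain mRNA was therefore 1.12 and 1.16 at day 0, 1.23 and 1.24 with RANKL and 1.27 in both acetate libraries. The make-up of that sum changed: at day 0 Slc7a8 held 242 ± 2.05 TPM (SD, n = 2) and Slc7a5 26.9 ± 0.148 TPM, and with RANKL 39.3 ± 3.41 and 64.0 ± 2.11 TPM. These are mRNA levels, and heavy and light chain protein was not measured.

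**Figure D4:**
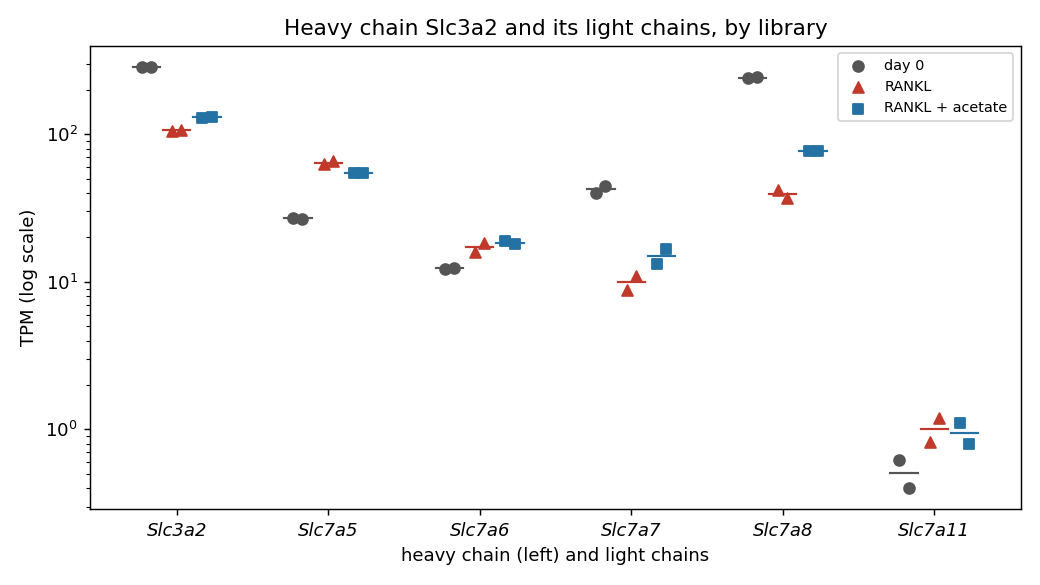
TPM of Slc3a2 and of its light chains in each library, on a log axis, with a line at each group's mean. Slc3a2, Slc7a7 and Slc7a8 are lower in all 4 day 1 libraries than at day 0, and Slc7a5 and Slc7a6 are higher.

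The wider family of carriers mostly fell with RANKL. Of 18 tested genes of a list of other amino acid carriers, 4 rose with RANKL (Slc7a6, Slc38a1, Slc6a9 and Slc43a3), 13 fell and 1, Slc3a1, did not pass. The median log2 fold change was -0.74, and 32.8% of all genes were called higher and 33.5% lower. Slc15a3, a peptide and histidine carrier of lysosomes, had 370.5 and 345 CPM at day 0, 30.9 and 35.7 CPM with RANKL and 106 and 109 CPM with RANKL and acetate, and Slc36a1, the proton-coupled amino acid carrier PAT1, 73.4 and 78.6 CPM at day 0, 19.5 and 15.9 CPM with RANKL and 26.7 and 27.0 CPM with RANKL and acetate. Their log2 fold changes were -3.43 ± 0.061 and -2.10 ± 0.097 with RANKL, and 1.69 ± 0.068 and 0.60 ± 0.11 with acetate (edgeR adjusted p for acetate = 3.47e-20 and 7.03e-05). With acetate 6 of the 18 rose and 0 fell by edgeR, against 16.7% of all genes called higher and 13.7% lower. The median was 0.27, and the day 1 levels with acetate of Slc15a3 and Slc36a1 stayed below day 0. Of the 4 that rose with RANKL, Slc38a1 was not called without day 0 replicate 1 or RANKL replicate 1 (edgeR adjusted p = 0.299 and 0.0601) and Slc6a9 not without day 0 replicate 2 or RANKL replicate 2 (adjusted p = 0.0682 and 0.0777). The macrophage markers also fell with RANKL and were higher with acetate, as given above, and their part in these carriers was not tested.

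The cytosolic tRNA synthetases rose nearly as a block with RANKL. Of 17, 15 rose, 1 fell and 1 did not pass, against 32.8% of all genes called higher and 33.5% lower. The median log2 fold change was 0.59, with a span of -0.22 to 0.83. Of the 17, 0 changed by as much as 2-fold, against 21.8% of all genes called at that size. Summed over the 17, they stood at 1337 and 1354 TPM at day 0, 1853 and 1855 TPM with RANKL and 1756 and 1758 TPM with acetate. As a share of all counts this was 0.232% and 0.230%, 0.347% and 0.350%, and 0.314% and 0.320%. The largest increase was that of Yars, which charges tyrosine, with 72.6 and 69.2 CPM at day 0, 122 and 131 CPM with RANKL and 106 and 108 CPM with RANKL and acetate and a log2 fold change of 0.83 ± 0.061 (edgeR adjusted p = 3.22e-14). The smallest adjusted p-values were those of Vars, Iars and Kars, which charge valine, isoleucine and lysine. Vars had 195 and 179 CPM at day 0, 327 and 328 CPM with RANKL and 319 and 321 CPM with RANKL and acetate. Kars had 135 and 132 CPM at day 0, 219 and 231 CPM with RANKL and 229 and 230.4 CPM with RANKL and acetate. Their log2 fold changes were 0.81 ± 0.044 for Vars, 0.74 ± 0.047 for Iars and 0.75 ± 0.048 for Kars (edgeR adjusted p = 1.10e-17, 6.71e-16 and 8.53e-16).

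The exceptions were the synthetases for serine and tryptophan. Sars, the serine enzyme, had 192 and 194 CPM at day 0, 169 and 161 CPM with RANKL and 183 and 172 CPM with RANKL and acetate. It was the only 1 of the 17 that fell, by 0.22 ± 0.048 on the log2 scale (edgeR adjusted p = 1.25e-04), although library totals alone, which shift the median of all genes from 0.010 to 0.13, gave -0.11 (adjusted p = 0.0518) and FPKM -0.072 (adjusted p = 0.351). Wars, the tryptophan enzyme, which is also known as an interferon-induced gene, had 104 and 109 CPM at day 0, 98.5 and 113 CPM with RANKL and 106 and 114 CPM with RANKL and acetate. All its groups overlapped, with a log2 difference of -0.0097 ± 0.063 for RANKL and a 95% interval of -0.14 to 0.12 (edgeR adjusted p = 0.904). On the TPM scale Sars was nonetheless the most abundant of the 17 at day 0, at 190.5 ± 14.2 TPM (SD, n = 2), followed by Nars at 129 ± 8.10, Rars at 110.2 ± 6.52 and Kars at 103 ± 0.806 TPM, and Lars was the least abundant at 33.6 ± 0.778 TPM. With RANKL Kars reached 174 ± 4.84 TPM, Sars 167 ± 3.71 TPM and Nars and Vars 157 ± 0.177 and 157 ± 4.71 TPM. Kars and Sars thus lay close together on this scale with RANKL, as did Nars and Vars.

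**Figure D5:**
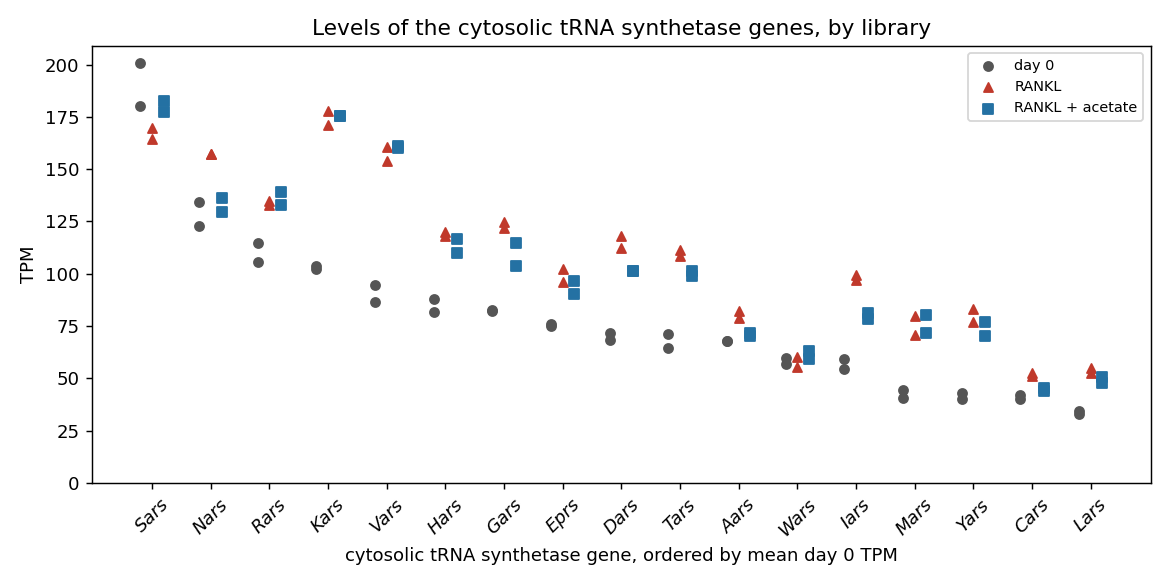
TPM of the 17 cytosolic tRNA synthetases in each library, ordered by their day 0 level. All but Sars and Wars are higher in both RANKL libraries than at day 0, and levels span 33.6 to 190.5 TPM at day 0.

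With acetate 7 of the 17 synthetases were lower than with RANKL alone (Iars, Nars, Yars, Aars, Dars, Cars and Gars), 0 were higher and 10 did not pass. Of all genes 13.7% were called lower and 16.7% higher. The median log2 fold change of the 17 was -0.11. The largest decrease was that of Iars, with 178 and 163 CPM at day 0, 283 and 287 CPM with RANKL and 228 and 239 CPM with RANKL and acetate. The acetate libraries lay between the other groups without overlap, at -0.29 ± 0.045 (edgeR adjusted p = 3.93e-06). Yars and Nars, the asparagine enzyme, changed by -0.24 ± 0.057 and -0.22 ± 0.045 (edgeR adjusted p = 0.00122 and 1.73e-04). On the TPM scale the groups overlapped for Yars, at 76.8 and 83.2 TPM with RANKL and 70.0 and 76.9 TPM with acetate. Aars, which charges alanine, changed by -0.17 ± 0.043 and was not called without RANKL replicate 2 (edgeR adjusted p = 0.0635). Cars, which charges cysteine, changed by -0.23 ± 0.066 and was not called without RANKL replicate 1 or acetate replicate 1 (adjusted p = 0.0723 and 0.0591), and Gars, which charges glycine, by -0.16 ± 0.050 and not without RANKL replicate 2 or acetate replicate 2 (adjusted p = 0.131 and 0.307). At the other end lay Sars, at 0.10 ± 0.048 (edgeR adjusted p = 0.104).

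Some synthetases work in the multisynthetase complex, a cytoplasmic assembly held together by scaffold proteins. All 7 of the complex's enzymes in the set (Dars, Eprs, Iars, Kars, Lars, Mars and Rars) rose with RANKL, with a median log2 fold change of 0.72, and of the 10 outside it 8 rose, with a median of 0.45. With acetate 2 of the 7 fell and 5 of the 10, with medians of -0.10 and -0.14. Of related genes, all 6 of the glutamine enzyme Qars, the phenylalanine subunits Farsa and Farsb, and the scaffold genes Aimp1, Aimp2 and Eef1e1 rose with RANKL, from 0.55 for Aimp1 to 1.15 for Eef1e1 on the log2 scale (edgeR adjusted p = 3.04e-08 and 3.85e-14). Eef1e1, the scaffold protein AIMP3, had 32.6 and 36.6 CPM at day 0, 81.7 and 71.9 CPM with RANKL and 74.9 and 67.4 CPM with RANKL and acetate. With acetate Farsa alone of these fell, by 0.19 on the log2 scale (edgeR adjusted p = 0.0177), a call lost without RANKL replicate 1, RANKL replicate 2 or acetate replicate 1 (adjusted p = 0.0505, 0.158 and 0.354). The listed mitochondrial synthetases, which charge tRNA inside the organelle and mostly have genes of their own, rose as well. With RANKL 13 of 17 rose, 0 fell and Aars2, Cars2, Fars2 and Wars2 did not pass, with a median of 0.44. Of all genes 32.8% were called higher and 33.5% lower. Yars2 and Mars2 led, with log2 fold changes of 0.94 ± 0.11 and 0.93 ± 0.094 (edgeR adjusted p = 2.83e-09 and 9.96e-11). With acetate 2 of the 17 fell, Sars2 and Tars2, by 0.41 and 0.23 on the log2 scale, against 13.7% of all genes. Both calls were lost when single libraries were left out, among them RANKL replicate 2 for Sars2 and acetate replicate 1 for Tars2.

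The genes upstream of ATF4, 13 kinases, phosphatase subunits and translation factors around eIF2, rose for the larger part. With RANKL 9 rose, 2 fell (Eif2ak2 and Eif2ak3) and 2 did not pass (Eif2ak4 and Ppp1r15b). The median log2 fold change was 0.50, and 32.8% of all genes were called higher and 33.5% lower. The fall of Eif2ak2, -0.18, was lost without RANKL replicate 2 (edgeR adjusted p = 0.0619), which leaves 1 fall, and on TPM and FPKM (limma adjusted p from 0.202 to 0.711). The kinase for amino acid shortage, GCN2, is encoded by Eif2ak4, which had 34.0 and 32.7 CPM at day 0, 32.0 and 31.9 CPM with RANKL and 33.0 and 34.8 CPM with RANKL and acetate, and its RANKL change of -0.060 ± 0.096 did not pass (edgeR adjusted p = 0.598). Its activator Gcn1l1 rose by 0.60 ± 0.052. Eif2b1, a subunit of the exchange factor that phosphorylated eIF2 inhibits, had 39.5 and 42.1 CPM at day 0, 84.1 and 82.0 CPM with RANKL and 72.0 and 66.5 CPM with RANKL and acetate, a log2 fold change of 1.03 ± 0.074 (edgeR adjusted p = 2.89e-14). Eif2ak3, which encodes PERK, the kinase of the endoplasmic reticulum, fell by 0.39 on the log2 scale (edgeR adjusted p = 4.55e-04). With acetate 1 of the 13 rose and 4 fell (Gcn1l1, Ppp1r15a, Eif2s1 and Eif2b1), against 16.7% of all genes called higher and 13.7% lower. The gene that rose was Eif2ak2, which encodes PKR, the kinase for double-stranded RNA and an interferon-induced gene, with 139 and 139 CPM at day 0, 127 and 118 CPM with RANKL and 182 and 187 CPM with RANKL and acetate and a log2 fold change of 0.59 ± 0.050 (edgeR adjusted p = 1.31e-11). The falls of Gcn1l1, Eif2s1 and Eif2b1 were lost when single libraries were left out (edgeR adjusted p up to 0.118 for Gcn1l1 without any 1 of the 4 day 1 libraries, up to 0.251 for Eif2s1 without RANKL replicate 1 or either acetate library, and 0.0778 for Eif2b1 without acetate replicate 2). The fall of Ppp1r15a, -0.55 ± 0.15, was absent on log2(TPM + 0.1), at 0.0074. Phosphorylation of eIF2 was not measured.

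Other known targets and partners of ATF4 mostly fell with RANKL. Of 13 tested from a list of 20, 2 rose (Aldh18a1 and Eif4ebp1), 8 fell and 3 did not pass (Nupr1, Gpt2 and Pycr1). The median log2 fold change was -0.56, and 32.8% of all genes were called higher and 33.5% lower. Aldh18a1, which starts proline synthesis, had 44.8 and 42.0 CPM at day 0, 71.2 and 73.3 CPM with RANKL and 72.0 and 63.6 CPM with RANKL and acetate, and rose by 0.73 ± 0.078 (edgeR adjusted p = 3.36e-10). Atf5, a related transcription factor, had 35.1 and 37.1 CPM at day 0, 17.8 and 16.8 CPM with RANKL and 12.6 and 16.7 CPM with RANKL and acetate, and changed by -1.06 ± 0.12 (adjusted p = 1.81e-09). Cebpb, a partner of ATF4 at the composite element, had 66.9 and 59.8 CPM at day 0, 43.7 and 42.2 CPM with RANKL and 99.5 and 82.5 CPM with RANKL and acetate. It was lowest with RANKL and highest with acetate, with log2 fold changes of -0.56 ± 0.086 and 1.08 ± 0.081 (edgeR adjusted p = 6.21e-07 and 4.80e-13). With acetate 3 of the 13 rose (Atf3, Cebpb and Gadd45a) and 1, Eif4ebp1, fell, by 0.44 (edgeR adjusted p = 2.14e-05). Of all genes 16.7% were called higher and 13.7% lower with acetate. Gadd45a had 2.18 and 3.35 CPM at day 0, 1.46 and 0.897 CPM with RANKL and 2.52 and 2.93 CPM with RANKL and acetate, and its acetate call was lost without RANKL replicate 2, acetate replicate 1 or acetate replicate 2 (edgeR adjusted p = 0.227, 0.0639 and 0.141).

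The acetate libraries were also set against day 0, to ask where they left the set relative to untreated cells. This comparison shares its libraries with both others. Of the 38 genes 27 were higher than at day 0 and 4 lower (Ddit3, Slc3a2, Slc1a4 and Sars) and 7 did not pass, against 60.7% of all genes called, 30.3% higher and 30.4% lower. The median log2 fold change was 0.46, against 0.0038 over all genes. Slc1a5 remained the gene with the largest increase, at 1.53 ± 0.061, followed by Shmt1 at 1.47 ± 0.10 and Shmt2 at 1.21 ± 0.048 (edgeR adjusted p = 2.81e-21, 1.00e-14 and 2.90e-21). Among synthetases 13 of 17 were higher than at day 0 and 1 lower, and Aars, Nars and Wars did not pass. Aars had 264 and 254 CPM at day 0, 291 and 309 CPM with RANKL and 263 and 270.4 CPM with RANKL and acetate, and Nars 213 and 231 CPM at day 0, 269 and 274 CPM with RANKL and 226 and 239 CPM with RANKL and acetate. Both were called higher with RANKL alone (0.21 ± 0.043 and 0.29 ± 0.045) and stood at 0.043 ± 0.043 and 0.066 ± 0.046 against day 0 with acetate (edgeR adjusted p = 0.413 and 0.227). Phgdh was the reverse, called against day 0 with acetate (0.34 ± 0.15, edgeR adjusted p = 0.0491) and not with RANKL alone, but leaving out any 1 of the day 0 or acetate libraries ended that call (adjusted p from 0.0858 to 0.164). The calls of Slc7a2, Slc1a4, Cars and Sars against day 0 were likewise lost when single libraries were left out, with adjusted p-values up to 0.147 for Slc7a2 and 0.111 for Slc1a4 (day 0 replicates 1 and 2 and acetate replicate 1 for both, and acetate replicate 2 for Slc7a2), 0.155 for Cars (day 0 replicate 1 and acetate replicates 1 and 2) and 0.332 for Sars (day 0 replicates 1 and 2 and acetate replicate 2). On FPKM the sign of Sars against day 0 turned, at 0.017.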

How the data were processed

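SMARTer mRNA-seq libraries were made from DNase-treated total RNA (miRNeasy kit), per the labels, which do not state the use of strand. Trimmomatic 0.39 trimmed the reads, which were aligned by STAR and counted by RSEM 1.3.1 on GRCm38, with DESeq2 1.26.0 also listed, per the submitters' processing notes. The STAR version and the annotation used are not given in the sources at hand. The authors deposited unnormalized expected counts per gene and transcript. The deposited TPM and the deposited FPKM were scaled by the authors for length and library total. TPM served to compare levels between genes, and both served as alternatives.

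The counts were rounded for edgeR 4.0.16 in R 4.3.3. Filtering used filterByExpr (minimum count 10, minimum total 15), TMM scaled the libraries, and the quasi-likelihood fit took all 6 libraries with a mean for each group, leaving 3 residual degrees of freedom. Calls were made at 0.05 after Benjamini-Hochberg adjustment across the 12224 genes tested. With 2 libraries against 2, a two-sided permutation p cannot go below 0.333, so the tests rest on spread pooled across genes. Fold changes in TPM or FPKM alternatives are on the log2(value + pseudocount) scale, with pseudocounts of 0.1 or 1. Libraries of a group differed by more than counting noise (chi-square per gene 1.94 to 2.61), so none were merged. The fit was also run on simulated data, and the outcome is not reported here.

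The members and gene lists were chosen with earlier results of these data known. All members outside the synthetases are named; of the synthetases, those with extreme fold changes, the smallest adjusted p-values and exceptions to counts; of each related list, up to 4 genes with the smallest adjusted p and exceptions among 5 or fewer. Genes named beyond this rule (such as Rars and Lars for their levels) were chosen after their values were seen. Alternatives were DESeq2 1.42.0, limma-voom and limma-trend (limma 3.58.1), other scalings and filters, a fit of only the groups compared, a replicate block, TPM and FPKM, and leaving out each library. Promoter windows are RefSeq's on GRCm38.p6. Gene locations and shared exonic bases come from a GENCODE annotation of GRCm38, which need not be the annotation behind the deposited counts. Phgdh alone had expected counts that were not whole. Values of some genes of the listed pathways are not reported here.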

Additional observations from a re-analysis of the deposited data

How the results depend on the processing

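With RANKL, 29 of the 33 calls among the 38 genes held in all 19 alternatives, and Trib3, Slc1a4, Slc7a11 and Sars lost theirs in at least 1. For acetate against RANKL 4 of 16 held. Against day 0 with acetate 26 of 31 held. Of the 38, 5 were called lower with RANKL, and 3 were under DESeq2, library totals alone, a filter of 5 CPM in 2 libraries and FPKM, and 2 under unfiltered TPM. The filter of 5 CPM left Trib3 and Slc1a4 untested, as both lay below it in every library. For acetate against RANKL 3717 genes were called by edgeR, 2453 by DESeq2, 1843 on log2(TPM + 0.1), 1908 on log2(TPM + 1), 1360 on unfiltered TPM and 1894 on FPKM. Of the 38, 3 were then higher, and 1 was under DESeq2 and each of the TPM and FPKM settings; 13 were lower, and 6 were on TPM with either pseudocount, 3 on unfiltered TPM and 7 on FPKM. Against day 0 with acetate 4 were lower, and 2 were under DESeq2, log2(TPM + 0.1), unfiltered TPM and FPKM. The cause of the other differences was not tested.

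Leaving out 1 library gave 3 to 5 members called lower with RANKL (3 without day 0 replicate 2 or RANKL replicate 1), 1 to 3 called higher and 9 to 13 called lower with acetate against RANKL (1 higher without RANKL replicate 1 or acetate replicate 1), and 2 to 4 called lower against day 0. Genes called then ranged from 7298 to 8196, from 2675 to 3687 and from 6541 to 7346. Where a group was left with 1 library, that library was assumed to vary like the others.

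Signs turned only for changes that were not called, except those of Sars against day 0 and of Ppp1r15a for acetate. With RANKL, Wars was 0.056 with upper-quartile factors and 0.11 with library totals alone. It was 0.0045 in the fit of only the groups compared and 0.099 on FPKM. Psph with RANKL was -0.071, -0.065 and -0.071 on log2(TPM + 0.1), log2(TPM + 1) and unfiltered TPM. A Psph transcript of 398 bases was given up to 9.28 counts in a library, and its part in this turn was not tested. For acetate against RANKL, Kars was -0.0024 with library totals alone and -0.0075 on FPKM, Ddit3 -0.0025, -0.0023 and -0.0025 on the TPM settings in that order and -0.020 on FPKM, Mars 0.015 on all of them, Vars 0.033 on TPM and 0.016 on FPKM, and Ppp1r15a 0.0074, 0.0085 and 0.0074 on TPM. Against day 0 with acetate, Psph was -0.35, -0.33 and -0.35 on TPM and -0.25 on FPKM, and Sars 0.017 on FPKM. Over the fits that leave out 1 library, values ranged with RANKL from -0.0071 to 0.052 for Phgdh, -0.29 to 0.039 for Slc7a2 and -0.10 to 0.086 for Wars. For acetate they ranged from -0.028 to 0.12 for Ddit3, -0.010 to 0.070 for Kars, -0.022 to 0.099 for Mthfd1l, -0.40 to 0.18 for Slc1a4 and -0.035 to 0.16 for Wars, and against day 0 from -0.13 to 0.16 for Psph and -0.21 to 0.32 for Trib3.

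Replicate 1 stands here for sample titles that end in 1 and replicate 2 for those without a number, and no pairing is stated. Deviations of same-numbered libraries correlated at -0.027, -0.063 and -0.0067, which cannot show whether samples were paired by animal or culture. With a replicate block 8028, 3611 and 7371 genes were called, and among the 38 genes 27 were higher and 5 lower with RANKL, 3 and 13 for acetate, and 25 and 4 against day 0. Counting error weighs most on Chac1, Trib3, Slc7a2, Slc7a11 and Slc1a4, all under 10 CPM in every library, and a difference of theirs that did not pass is not shown to be absent. Doses are not given, and both day 1 groups share the day in culture.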

Other observations

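Kars is spliced into transcripts that are known in mammals to give the cytosolic and the mitochondrial lysine enzyme from a single gene, so its transcript counts were read apart. A transcript of 2007 bases held most of the counts and 1 of 2156 bases most of the remainder. The longer transcript held 22.0% (19.8% to 24.3%) and 22.0% (19.7% to 24.4%) of the gene's expected counts at day 0, with exact 95% binomial intervals. With RANKL the share was 12.6% (11.3% to 13.9%) and 15.4% (14.0% to 16.8%), and with acetate 16.9% (15.4% to 18.4%) and 17.4% (15.9% to 19.0%). Both day 0 libraries were the highest and both RANKL libraries the lowest, without overlap between groups. The shares are RSEM estimates, the intervals cover counting error only and not the assignment of reads, and the difference was not tested. Which of both transcripts encodes the mitochondrial form was not determined here.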
